A study of Homo sapiens with 6 samples.

Results

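Surface and lysosomal markers by which blood monocytes and their precursors are recognised were followed in U937, an established human cell line derived from a histiocytic lymphoma and widely used as a model of immature monocytic cells. The markers are the 10 genes CD4, CD14, CD33, CD36, CD68, CD86, CSF1R, CSF3R, FCGR1A and FCGR2A, chosen by name and found by Ensembl identifier among the 18798 genes of the count table. All 10 have a row. The comparison used 6 libraries, each 1 column of RNA-seq counts. The 3 ΔNSPs libraries came from U937 clones depleted of CTSG, ELANE and PRTN3 at the same time, the genes of the granule serine proteases cathepsin G, neutrophil elastase and proteinase 3. The 3 Control libraries came from U937 lines transduced with control plasmids. Cells of both groups were kept in geneticin at 500 µg/ml, no agent that drives maturation is named for either group, and each ΔNSPs library is a single clone.

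Monocytes arise from bone marrow progenitors through a promonocyte stage. CD33, CD4 and the receptor for granulocyte colony-stimulating factor (CSF3R) are present on immature myeloid cells, whereas CD14, CD36, CD86 and the receptor for macrophage colony-stimulating factor (CSF1R) become prominent as monocytes mature and turn into macrophages. Fc receptors such as FCGR1A and FCGR2A let these cells bind antibody-coated targets, and CD68 is a heavily glycosylated protein of their lysosomes. In vitro, U937 cells acquire many of these markers after exposure to phorbol ester, vitamin D or retinoic acid.

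Library totals ran from 11476619 to 13782854 counts, at which a floor of 3 counts equals 0.214 to 0.260 CPM (counts per 1000000, with library totals adjusted by TMM normalisation). The targeted genes were low: CTSG, ELANE and PRTN3 averaged 4.09%, 2.12% and 12.8% of the Control mean in ΔNSPs, and for each of them every clone lay below every Control line. PRTN3 was at 0.855, 63.2 and 55.3 CPM in the clones against 539, 147 and 244 CPM in the lines, so clone 1 was by far its lowest. For CTSG and ELANE clone 1 was instead the highest clone. CTSG was at 136, 110 and 45.2 CPM and ELANE at 41.9, 1.89 and 27.8 CPM in clones 1 to 3. In edgeR CTSG passed (adjusted p = 0.0215), and ELANE (adjusted p = 0.145) and PRTN3 (adjusted p = 0.217) did not. All 8 markers listed for the monocytic type were present, with a summed level of 1728 to 2571 CPM in ΔNSPs and 1730 to 1968 CPM in Control. That sum was mainly ITGB2 (413.5 to 1041 CPM in ΔNSPs, 489.1 to 578 in Control) and LAPTM5 (648.1 to 720.7 and 596.4 to 744.9). TYROBP was the lowest of them, at 4.85 to 31.0 CPM in ΔNSPs and 4.42 to 7.02 CPM in Control. Of the T cell markers, CD3D, CD3E, CD3G and CD8A have no row here and CD2 had at most 0.421 CPM. The 3 measured erythroid genes, mainly HBB, summed to 103 to 147 CPM in ΔNSPs and 96.5 to 170 CPM in Control, and the 3 measured B cell genes to 25.2 to 59.2 CPM in ΔNSPs and 38.4 to 69.4 CPM in Control. The NK cell list, with 2 of 4 genes measured, summed to 4.77 to 12.6 CPM in ΔNSPs and 4.51 to 8.77 CPM in Control, and the megakaryocyte list, with 2 of 4, to 0.842 to 3.71 CPM in ΔNSPs and 0.936 to 2.08 CPM in Control.

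In overall expression no clone was nearest to another clone. Over all tested genes, the root mean square log2 difference between ΔNSPs clone 1 and each of Control lines 2 and 3 was 0.483, while clone 1 differed from clones 2 and 3 by 0.744 and 0.709. Clones 2 and 3 were nearest to Control line 1, at 0.644 and 0.635, and differed from each other by 0.647. The Control lines differed from one another by 0.349 to 0.484. Values are therefore given library by library, and results are also given with single libraries left out where that changes them.

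The promoters of 3 members share a stretch of letters, and they are shown for that reason. FCGR1A, FCGR2A and CD33 each carry the 14 bases CCTTCCTCTTTTCT, in capitals below, close to the RefSeq start. These letters were found, on either strand, in 4 of 35116 RefSeq promoter windows (0.0114%), the fourth belonging to LINC02683. The overlap was noticed when the members' windows were compared. It was taken as the longest stretch that these 3 windows share, so its low count elsewhere follows largely from its length. FCGR1A and FCGR2A, both Fc receptor genes, match beyond it on each side. Each window has 300 bases, most of them before the start, in build GRCh38.p14: chr1:149782444-149782743 on the plus strand for FCGR1A, chr1:161505207-161505506 on the plus strand for FCGR2A and chr19:51224830-51225129 on the plus strand for CD33. Counting the start as 0, the stretch covers -48 to -35 in FCGR1A, -47 to -34 in FCGR2A and -12 to 1 in CD33.
FCGR1A: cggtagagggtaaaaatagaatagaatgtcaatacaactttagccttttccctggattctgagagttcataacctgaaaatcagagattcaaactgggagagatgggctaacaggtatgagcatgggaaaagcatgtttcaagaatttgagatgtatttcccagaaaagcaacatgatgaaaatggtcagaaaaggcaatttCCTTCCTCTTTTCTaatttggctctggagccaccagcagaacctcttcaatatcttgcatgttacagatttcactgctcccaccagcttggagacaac
FCGR2A: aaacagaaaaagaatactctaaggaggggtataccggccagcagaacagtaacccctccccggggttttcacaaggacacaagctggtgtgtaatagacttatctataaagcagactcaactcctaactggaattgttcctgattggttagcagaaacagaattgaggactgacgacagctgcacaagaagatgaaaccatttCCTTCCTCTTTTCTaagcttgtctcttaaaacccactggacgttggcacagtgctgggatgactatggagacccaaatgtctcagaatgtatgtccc
CD33: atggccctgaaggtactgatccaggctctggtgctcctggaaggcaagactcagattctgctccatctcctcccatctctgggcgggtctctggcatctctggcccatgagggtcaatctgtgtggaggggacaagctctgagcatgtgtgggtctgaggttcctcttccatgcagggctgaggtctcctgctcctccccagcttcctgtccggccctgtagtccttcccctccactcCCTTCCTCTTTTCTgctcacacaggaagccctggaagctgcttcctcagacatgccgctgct

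The stretch contains TTCCTC, the reverse complement of GAGGAA, a core that the myeloid transcription factor PU.1 (encoded by SPI1) recognises. Of the 9 members matched in the RefSeq table, all but CD4, 9 had GAGGAA on either strand in at least 1 window, in 12 of their 17 windows, against 27.9% of all windows and 31.8% of all genes with a window. Members had 17 windows for 9 genes, against 35116 windows for 27305 genes, so the shares per gene are not like for like. Windows are also not independent, as those of CD36 starting at 80638266 and 80638392 overlap and hold the same core. A match of letters is not a measured binding site. Letters TTNNGNAA, a loose form of the C/EBP site, stood in 9 of the 17 member windows, against 36.8% of all windows, and TGANTCA, the AP-1 site, in 4 of the 17, against 7.71%. Members with and without appreciable transcript both held the PU.1 core, as the windows of CSF1R (chr5:150086505-150086804, minus strand), CSF3R (chr1:36482864-36483163, minus strand) and CD14 (chr5:140633126-140633425, minus strand) show. GAGGAA is in capitals. Counts per gene do not tell which of several starts was used, so for CSF1R and CSF3R the window with the core is printed.
CSF1R: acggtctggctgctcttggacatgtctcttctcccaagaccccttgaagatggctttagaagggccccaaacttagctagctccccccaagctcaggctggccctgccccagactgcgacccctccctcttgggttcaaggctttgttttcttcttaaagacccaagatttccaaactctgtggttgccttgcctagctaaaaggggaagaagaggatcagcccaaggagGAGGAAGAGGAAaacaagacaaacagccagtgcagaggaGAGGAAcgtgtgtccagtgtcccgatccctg
CSF3R: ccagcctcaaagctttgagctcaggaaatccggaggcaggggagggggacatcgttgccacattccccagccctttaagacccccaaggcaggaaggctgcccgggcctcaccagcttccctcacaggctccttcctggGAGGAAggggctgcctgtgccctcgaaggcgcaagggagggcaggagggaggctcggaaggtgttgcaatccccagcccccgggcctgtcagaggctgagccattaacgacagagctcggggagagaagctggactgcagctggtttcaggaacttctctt
CD14: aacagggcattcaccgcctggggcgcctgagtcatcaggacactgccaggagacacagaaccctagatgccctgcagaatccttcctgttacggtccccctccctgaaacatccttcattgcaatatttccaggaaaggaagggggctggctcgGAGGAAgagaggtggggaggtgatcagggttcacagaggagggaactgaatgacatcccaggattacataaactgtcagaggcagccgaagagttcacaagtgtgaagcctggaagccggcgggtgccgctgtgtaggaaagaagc

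SPI1 itself was at 127, 138 and 153 CPM in ΔNSPs clones 1 to 3, against 125, 115 and 125 CPM in Control lines 1 to 3. The clones lay above the lines, but the gene did not pass in edgeR (log2 fold change 0.20, SE 0.11; adjusted p = 0.366).

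Set against each other per length, the members spanned a wide range. CD4 led in both groups, at 27.3, 77.7 and 55.2 CPM per kilobase of annotated exon in the clones and 60.5, 56.2 and 63.4 in the Control lines. CSF3R and CD33 followed at 12.8 ± 5.33 and 11.8 ± 1.64 in ΔNSPs and 10.4 ± 2.87 and 12.1 ± 0.0141 in Control (SD, n = 3 each), overlapping each other in both groups. FCGR2A came next at 3.84 ± 0.785 in ΔNSPs and 5.97 ± 0.71 in Control, then FCGR1A at 1.96 ± 0.406 in ΔNSPs and 1.96 ± 0.431 in Control. Each of these steps from CD33 to FCGR2A to FCGR1A was wider than the spread between libraries. CSF1R averaged 0.519 ± 0.315 in ΔNSPs and 0.167 ± 0.129 in Control, overlapping CD68 at 0.31 ± 0.194 in ΔNSPs and 0.31 ± 0.0429 in Control. CD86, CD14 and CD36 stood last, with means of 0.0409 to 0.0881 in ΔNSPs and 0.0211 to 0.0607 in Control, and were not separable from one another. Lengths are the union of all exons annotated for a gene, which can exceed the length of any single transcript, so these levels are approximate. The level of CD68 may be too low, because most of its exon bases are shared with another gene, as described below.

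**Figure D1:**
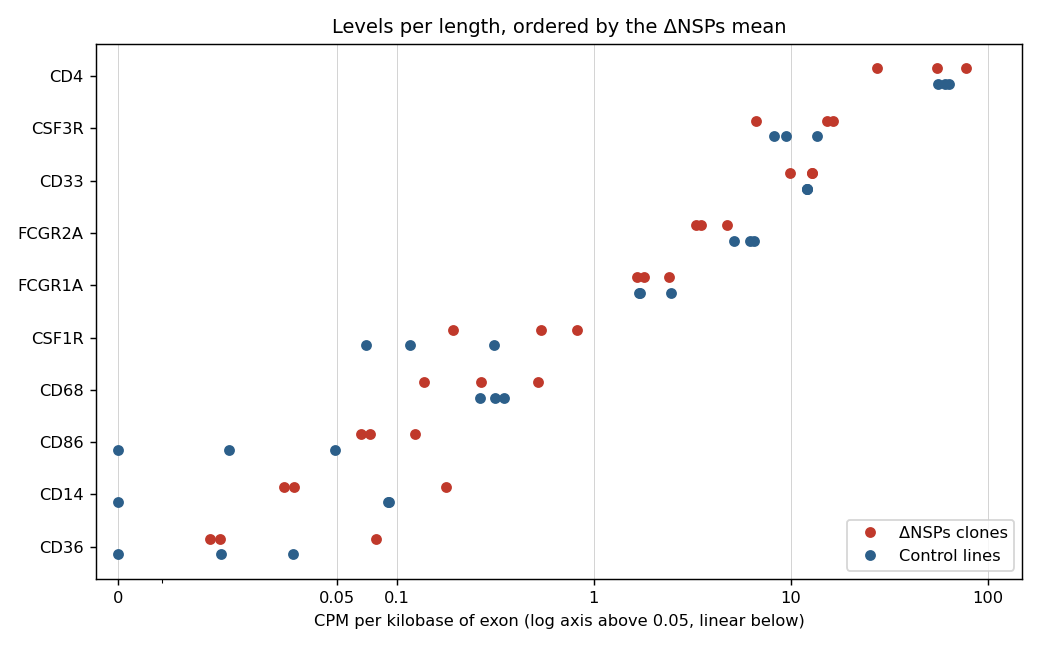
CPM per kilobase of exon (horizontal, logarithmic above 0.05 and linear below) for the 10 members, ordered by the ΔNSPs mean; each point is 1 library. CD4 is highest in both groups, and CD86, CD14 and CD36 reach 0 in at least 1 Control line.

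No member passed the main test. The comparison of ΔNSPs clones with Control lines called 0 of the 6 members tested in edgeR at an adjusted p under 0.05, and called 0.0203% of the 14797 genes tested. CD14, CD36, CD68 and CD86 fell below the count filter of this test. With no filter, edgeR tested all 10 members and called 0. At an unadjusted p under 0.05 there were 2 of 6, CSF1R higher and FCGR2A lower, against 17.8% of all tested genes, and limma voom called 0 against 0.0135%. DESeq2 called 1 of the 5 members to which it gave an adjusted p (FCGR2A, lower), against 4.42% of the 12771 genes with one. It gave none to CSF1R, whose unadjusted p was 0.0233 there. The median log2 fold change was -0.013 over the 6 members and 0.0023 over all tested genes. In 1 of the 6 members the groups did not overlap, which was so for 23.9% of all tested genes (12.2% with ΔNSPs higher, 11.7% with it lower). Without clone 1 this was so for 3 of the 6 members, CSF1R, CSF3R and FCGR2A, and for 45.6% of the same genes. In bulk RNA of this kind, fewer cells carrying a transcript and less transcript per cell cannot be told apart.

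**Figure D2:**
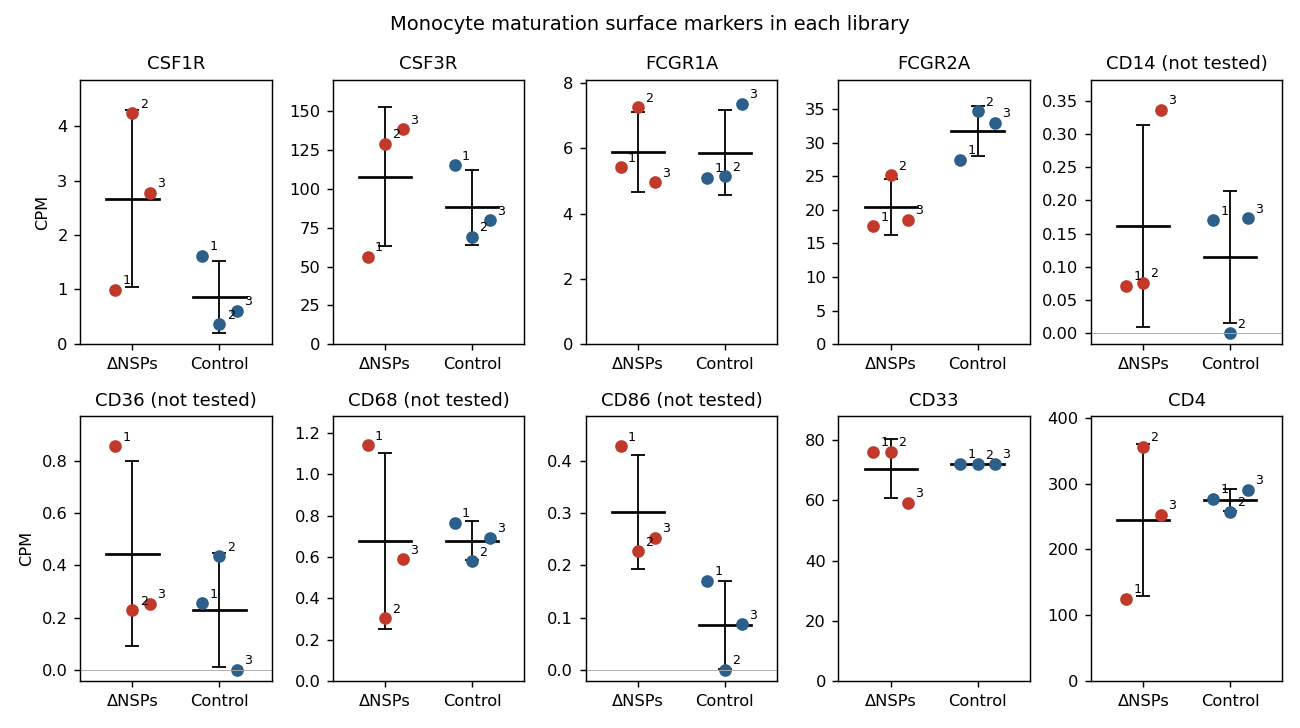
CPM of each member (vertical axis, linear from 0, scaled separately) in the 3 ΔNSPs clones (left) and 3 Control lines (right), numbered by replicate; horizontal bars are means and whiskers SD. Groups are separate for FCGR2A, and for CD86 at counts of 6 or fewer; "not tested" marks genes below the count filter.

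Among the growth factor receptors, CSF1R was low and uneven. CSF1R (ENSG00000182578; chromosome 5, 150053291 to 150113372, GRCh38) encodes the tyrosine kinase that binds CSF-1 and interleukin 34 and sustains macrophages. It had 14, 56 and 33 counts in clones 1 to 3, which is 0.998, 4.24 and 2.78 CPM, against 19, 5 and 7 counts in Control lines 1 to 3, which is 1.62, 0.362 and 0.606 CPM. Clones 2 and 3 exceeded every Control line, while clone 1 lay below Control line 1. The means were 2.67 ± 1.62 CPM in ΔNSPs and 0.862 ± 0.665 CPM in Control (SD, n = 3 each), 3.10-fold apart, and the difference did not pass (edgeR log2 fold change 1.64, SE 0.67; adjusted p = 0.263). Its estimate ran from 1.13 without clone 2 to 2.45 without Control line 1, with adjusted p at its lowest, 0.0758, without clone 1.

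CSF3R (ENSG00000119535; chromosome 1, 36466043 to 36483278) encodes the receptor through which G-CSF drives granulocytic cells. It was far more abundant than CSF1R, by 30.4 to 56.6 counts per CSF1R count in the clones and 71.3 to 191 in the Control lines. Levels were 56.5, 129 and 139 CPM in clones 1 to 3 and 115, 69.1 and 79.7 CPM in Control lines 1 to 3. Clone 1 was the lowest of the 6 libraries and clones 2 and 3 the highest, with Control line 1 next to them. The group difference was small against that spread (edgeR log2 fold change 0.29, SE 0.33; adjusted p = 0.664) and stood at 0.60 without clone 1 (adjusted p = 0.116) and at 0.075 without clone 3 (adjusted p = 0.941).

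Related receptors and ligands did not pass either. Of 9 genes listed for this family 6 have a row and 4 were tested, with 0 called in edgeR, 0 with an unadjusted p under 0.05 and 0 called in DESeq2. Their median log2 fold change was 0.23. CSF2RB, the signalling chain shared by the GM-CSF, interleukin 3 and interleukin 5 receptors, was at 15.8, 31.9 and 19.5 CPM in the clones against 20.0, 23.6 and 19.5 CPM in the Control lines. CSF2RA, the GM-CSF binding chain, was at 17.6, 11.6 and 9.77 CPM in the clones against 13.5, 17.2 and 19.4 CPM in the Control lines (adjusted p = 0.467). The ligand gene CSF1 had 0.454 CPM at most. FLT3, a relative of CSF1R found on progenitors and named here after its values were seen, repeated the division of CSF1R: it was at 0.0713, 2.95 and 3.96 CPM in the clones against 2.81, 0.580 and 0.606 CPM in the lines, so that clones 2 and 3 and Control line 1 stood above the other 3 libraries.

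The Fc receptor FCGR2A was the tested member whose groups did not overlap. FCGR2A (ENSG00000143226; chromosome 1, 161505430 to 161524013) encodes the activating low-affinity IgG receptor CD32A, which carries its own signalling motif. It was at 17.5, 25.2 and 18.5 CPM in clones 1 to 3 and at 27.5, 34.7 and 33.0 CPM in Control lines 1 to 3. Every clone lay below every line, with clone 2 close to Control line 1. Means were 20.4 ± 4.17 CPM in ΔNSPs and 31.7 ± 3.77 CPM in Control (SD, n = 3 each), or 64.4% of the Control mean. The log2 fold change was -0.64 (SE 0.17), which did not pass in edgeR (adjusted p = 0.178) and passed in DESeq2 (adjusted p = 0.0409). Its direction was negative in all 14 alternative fits, from -0.81 to -0.54, with adjusted p from 0.0409 to 0.532.

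FCGR1A (ENSG00000150337; chromosome 1, 149782671 to 149792518) encodes the high-affinity IgG receptor CD64, which signals through the gamma chain encoded by FCER1G. Its levels overlapped between the groups, at 5.42, 7.27 and 4.97 CPM in the clones and 5.11, 5.14 and 7.36 CPM in the Control lines (edgeR log2 fold change 0.0055, SE 0.25; adjusted p = 0.993). With 59 to 96 counts a library this difference is known only to within its SE. FCGR2A counts exceeded FCGR1A counts 3.24- to 3.73-fold in the clones and 4.48- to 6.75-fold in the Control lines, without overlap.

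Counts of both Fc receptor genes are uncertain because near-identical genes exist. Of the 50-base stretches in FCGR1A transcripts, 55.4% also occur in FCGR1B or FCGR1CP, and 16.7% of those of FCGR2A occur in other genes, chiefly FCGR2C. FCGR1B had 0.253 to 0.454 CPM in ΔNSPs and 0.145 to 0.766 CPM in Control, and FCGR2C 0.0713 to 0.908 CPM in ΔNSPs and 0.0851 to 0.580 CPM in Control. FCGR1CP was at 0.214 to 1.44 CPM in ΔNSPs and 0.340 to 0.433 CPM in Control. FCGR2B, the inhibitory receptor of the same cluster, was at 0.927, 3.03 and 0.842 CPM in the clones and 0.681, 1.09 and 2.25 CPM in the lines. With FCGR1B and FCGR1CP added, FCGR1A gave a log2 fold change of 0.034. With FCGR2B and FCGR2C added, FCGR2A gave one of -0.57 (edgeR adjusted p = 0.213). FCGR2B shares only 3.21% of the FCGR2A stretches but supplied most of these added counts. It had 13, 40 and 10 counts in the clones, against 1, 12 and 5 for FCGR2C. The sum therefore does not measure shared reads alone.

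The partners of these receptors were mixed. Of the 16 genes listed for Fc receptors and their first signalling steps, 15 have a row and 12 were tested. In edgeR 0 were called. An unadjusted p under 0.05 was reached by 3 genes with ΔNSPs higher and 2 with it lower (against 9.23% and 8.6% of all tested genes, shares that also stand beside such counts for the lists that follow), and the list's median log2 fold change was 0.028. DESeq2 called 3, FCER1G and FGR as higher and FCGRT as lower. FCER1G was at 21.0, 62.4 and 54.5 CPM in the clones and 21.7, 17.9 and 19.8 CPM in the Control lines, so clone 1 was level with Control while clones 2 and 3 were above every line. The gamma chain thus had 3.88, 8.59 and 10.97 counts per FCGR1A count in the clones, against 4.25, 3.48 and 2.69 in the lines. FGR, a Src family kinase of myeloid cells and the listed gene with the lowest p, showed the same division, at 32.5, 78.3 and 85.1 CPM in the clones and 21.6, 30.5 and 33.0 CPM in the lines (edgeR log2 fold change 1.20, SE 0.34; adjusted p = 0.178). FCGRT, the neonatal Fc receptor that recycles IgG, lay lower in every clone, at 94.9, 71.0 and 43.3 CPM in the clones against 100.3, 131 and 164 CPM in the lines (edgeR log2 fold change -0.92, SE 0.28; adjusted p = 0.19). SYK, the kinase recruited by the activating receptors and the most abundant of the list, differed by less than its SE, at 276 ± 16.4 CPM in ΔNSPs and 278 ± 11.2 CPM in Control (log2 fold change -0.0063, SE 0.094).

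**Figure D3:**
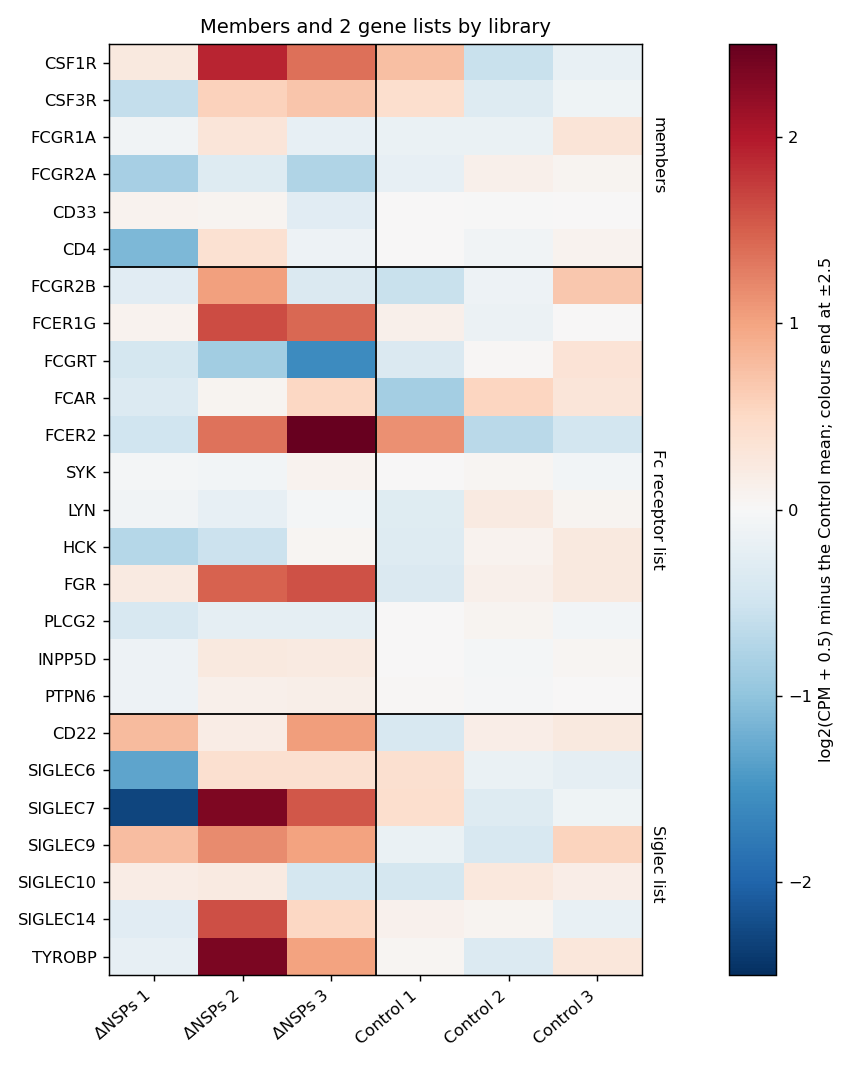
log2(CPM + 0.5) minus the Control mean (colour) for the 6 tested members and the tested genes of the Fc receptor and Siglec lists (rows) in each library (columns). FCER1G, FGR, SIGLEC7 and TYROBP are high in ΔNSPs clones 2 and 3 and not in clone 1, whereas FCGR2A is low in all 3 clones.

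Receptors of mature monocytes for lipopolysaccharide and oxidised lipid were close to absent. CD14 (ENSG00000170458; chromosome 5, 140631728 to 140633701), the co-receptor for lipopolysaccharide and the defining marker of classical monocytes, had 1, 1 and 4 counts in the clones and 2, 0 and 2 counts in the Control lines. CD36 (ENSG00000135218; chromosome 7, 80369575 to 80679277), a scavenger receptor that takes up oxidised lipoprotein and fatty acids, had 12, 3 and 3 counts in the clones and 3, 6 and 0 in the lines. Both genes thus lay around the floor of 3 counts in most libraries, the highest being CD36 in clone 1 at 0.855 CPM and in Control line 2 at 0.435 CPM, and CD14 in clone 3 at 0.337 CPM. A difference between the groups was not detectable at this depth for either, and with no filter edgeR gave log2 fold changes of 0.47 (SE 1.16; adjusted p = 0.879) for CD14 and 0.90 (SE 0.96; adjusted p = 0.689) for CD36.

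The lipopolysaccharide receptor TLR4, with which CD14 cooperates, was measured at higher levels. TLR4 was at 34.7, 67.1 and 48.1 CPM in the clones and 42.0, 33.4 and 29.1 CPM in the Control lines, while LY96, which encodes its partner MD-2, had 7 counts at most and was not tested. Of 11 genes listed with CD14, 8 have a row and 6 were tested, with 0 called by edgeR or DESeq2. A single gene had an unadjusted p under 0.05, with ΔNSPs higher, and the median over the list was 0.18 (log2). That gene was MYD88, the adaptor of most Toll-like receptors, at 95.0, 103 and 92.9 CPM in the clones and 77.6, 84.6 and 82.6 CPM in the lines, without overlap (edgeR log2 fold change 0.25, SE 0.096; adjusted p = 0.246).

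CD68 (ENSG00000129226; chromosome 17, 7579467 to 7582113), which is commonly used to stain macrophages, had 16, 4 and 7 counts in the clones and 9, 8 and 8 counts in the Control lines. That equals 1.14, 0.303 and 0.59 CPM in ΔNSPs and 0.766, 0.580 and 0.693 CPM in Control. With no filter its log2 fold change was 0.0087 (SE 0.56; edgeR adjusted p = 0.995). This count may be incomplete: in GENCODE v29, 81.7% of the exon bases of CD68 are also exon of AC016876.2, a processed transcript on the same strand, and 74.3% of its 50-base transcript stretches occur there. AC016876.2 has no row here, so whether it was among the genes counted is not known. HTSeq by default gives a read that fits more than 1 gene to none, the settings chosen here are not stated in any source used, and the effect on CD68 was not tested. No other member had more than 18.7% of its exon bases shared with another gene.

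Among other scavenger receptors and lysosomal membrane proteins 12 genes were listed, 7 have a row and 7 were tested, of which edgeR called 0. With an unadjusted p under 0.05 there were 1 gene higher and 3 genes lower in ΔNSPs, DESeq2 called 1, LAMP2, as lower, and the median log2 fold change was -0.18. The main lysosomal membrane glycoproteins lay on opposite sides of Control. LAMP1 was at 410.3, 542 and 486 CPM in the clones and 390, 381 and 373 CPM in the Control lines, and LAMP2 at 218, 240 and 227 CPM in the clones and 268, 338 and 297 CPM in the lines. The groups did not overlap for either gene, LAMP1 lying above Control (edgeR log2 fold change 0.33, SE 0.12; adjusted p = 0.222) and LAMP2 below (log2 fold change -0.40, SE 0.11; adjusted p = 0.178). MARCO, a macrophage scavenger receptor named here after its values were seen, was at 4.06, 2.04 and 0.337 CPM in the clones and 4.17, 9.13 and 7.45 CPM in the lines.

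CD86, CD33 and CD4 bear on contact with other cells. CD86 (ENSG00000114013; chromosome 3, 122055366 to 122121139), the costimulatory ligand of CD28 on T cells, had 6, 3 and 3 counts in the clones and 2, 0 and 1 in the Control lines. Every clone was above every line, but with 12 counts in all in ΔNSPs and 3 in Control the gene fell below the filter. With no filter the difference did not pass (edgeR log2 fold change 1.77, SE 0.97; adjusted p = 0.414). Of 7 genes of the B7 family and CD40, 5 have a row and 3 were tested, with 0 called by edgeR or DESeq2 and a list median of 0.081 (log2). The gene with an unadjusted p under 0.05 was VSIR, which encodes the inhibitory ligand VISTA, at 71.9, 87.1 and 76.6 CPM in the clones and 36.0, 60.4 and 60.4 CPM in the lines (edgeR log2 fold change 0.59, SE 0.20; adjusted p = 0.21).

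CD33 (ENSG00000105383; chromosome 19, 51225064 to 51243860), an inhibitory sialic acid-binding lectin used to identify myeloid cells, was the steadiest member. It was at 76.3, 76.2 and 59.3 CPM in clones 1 to 3 and at 72.2, 72.1 and 72.2 CPM in the Control lines, so that clone 3 was the library that stood apart. The log2 fold change was -0.031 (SE 0.12; edgeR adjusted p = 0.914), and it turned to 0.080 without clone 3.

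Other Siglecs differed in how far their libraries spread. Of 11 genes listed, including the adaptor TYROBP, 10 have a row and 7 were tested. Neither edgeR nor DESeq2 called any (0 and 0). ΔNSPs was higher in the 3 genes that reached an unadjusted p under 0.05, and the list median was 0.87 (log2). SIGLEC7, an inhibitory relative of CD33 named after its values were seen, was at 0.927, 34.8 and 20.0 CPM in the clones and 8.94, 5.14 and 5.98 CPM in the Control lines, with clone 1 below and clones 2 and 3 above every line. TYROBP, the signalling adaptor DAP12, was at 4.85, 31.0 and 12.04 CPM in the clones and 5.96, 4.42 and 7.02 CPM in the lines. SIGLEC10 overlapped between groups, at 12.9, 13.3 and 8.25 CPM in the clones and 8.26, 13.8 and 12.8 CPM in the lines (log2 fold change -0.015, SE 0.26). SIGLEC6, the most abundant Siglec of the list, was at 5.63, 19.8 and 19.9 CPM in the clones and 19.7, 13.1 and 12.6 CPM in the lines. SIGLEC9, with the lowest p, did not overlap between groups and had 1.00 ± 0.213 CPM in ΔNSPs and 0.283 ± 0.284 CPM in Control (edgeR log2 fold change 1.83, SE 0.67; adjusted p = 0.229). It had only 11, 16 and 12 counts in the clones and 2, 1 and 7 in the lines. Control lines 1 and 2 thus lay below the floor of 3 counts.

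CD4 (ENSG00000010610; chromosome 12, 6786858 to 6820808), best known as the co-receptor of helper T cells and also carried by human monocytes, was the most abundant member. It was at 125, 356 and 253 CPM in clones 1 to 3 and at 277, 257 and 291 CPM in Control lines 1 to 3. The Control lines lay close together, and the clones were spread on both sides of them, clone 1 lowest and clone 2 highest of all 6. Means were 245 ± 116 CPM in ΔNSPs and 275 ± 16.7 CPM in Control (SD, n = 3 each; edgeR log2 fold change -0.17, SE 0.31; adjusted p = 0.81). Without clone 1 the log2 fold change was 0.14 and without clone 2 it was -0.54, so its sign rested on clone 1. Of 5 genes listed with CD4, 3 have a row and 2 were tested, of which edgeR and DESeq2 called 0, with a median log2 fold change of 0.22. IL16, the gene of these with an unadjusted p under 0.05 and a cytokine that binds CD4, was at 25.9, 60.3 and 51.6 CPM in the clones and 33.3, 23.2 and 22.7 CPM in the lines (edgeR log2 fold change 0.80, SE 0.30; adjusted p = 0.238), and CXCR4, a chemokine receptor, at 193, 227 and 157 CPM in the clones and 151, 297 and 291 CPM in the lines.

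**Figure D4:**
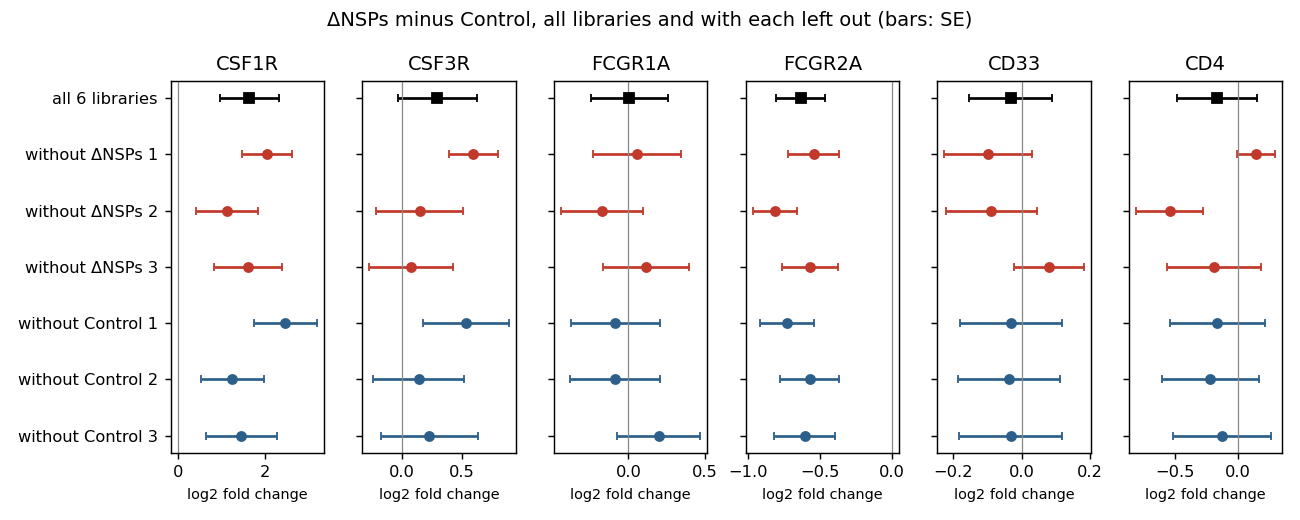
Log2 fold change, ΔNSPs minus Control (horizontal, scaled separately), with SE bars for the 6 tested members from all libraries (black square) and with each library left out. CSF1R stays above 0 and FCGR2A below 0 in every fit shown, while FCGR1A, CD33 and CD4 cross 0.

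Genes that accompany maturation or mark progenitors were read beside the members. Of 16 other maturation genes 14 have a row and 12 were tested, with 0 called in edgeR, 1 higher in DESeq2 (FCN1), 2 higher at an unadjusted p under 0.05 and a median log2 fold change of 0.42. FCN1, a lectin of monocyte granules, was at 23.2, 42.4 and 64.3 CPM in the clones and 23.9, 14.6 and 20.4 CPM in the Control lines (edgeR adjusted p = 0.189). MNDA, the most abundant, was at 243 ± 30.1 CPM in ΔNSPs and 264 ± 30.6 CPM in Control. Of 6 progenitor genes 4 have a row and were tested, with 0 called by edgeR or DESeq2, a list median of 0.19 (log2) and 1 gene higher at an unadjusted p under 0.05, the transferrin receptor TFRC at 315, 377 and 397 CPM in the clones against 263, 334 and 244 CPM in the lines. SPN, which encodes leukosialin, was the most abundant of them at 564 ± 93.2 CPM in ΔNSPs and 448 ± 80.3 CPM in Control.

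Of 10 myeloid transcription factors all have a row and 9 were tested, with 0 called in edgeR, 2 higher in DESeq2 (CEBPB and RUNX1), 3 higher at an unadjusted p under 0.05 and a median log2 fold change of 0.25. CEBPB, which supports monocytic maturation, was at 81.4, 213 and 174 CPM in the clones and 64.3, 74.9 and 75.7 CPM in the Control lines, without overlap (edgeR log2 fold change 1.12, SE 0.31; adjusted p = 0.178). CEBPA, the most abundant, was at 363 ± 41.8 CPM in ΔNSPs and 386 ± 40.2 CPM in Control. IRF8, which directs progenitors to the monocytic fate and is named after its values were seen, was at 0.927, 50.1 and 2.86 CPM in the clones and 52.0, 3.12 and 4.68 CPM in the lines, so that clone 2 and Control line 1 stood above the other 4 libraries.

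Over all 10 lists, 103 genes were named, 82 have a row and 66 were tested. The lists were chosen with earlier results of these data known. Their shares set beside those of all genes are therefore a description and no test. In edgeR 0 of the 66 were called, while 16 (24.2%) with ΔNSPs higher and 5 (7.58%) with it lower reached an unadjusted p under 0.05, against 9.23% and 8.6% of all tested genes. DESeq2 called 7 of the 57 to which it gave an adjusted p, of which 5 were higher, against 4.42% of all genes with one. The median log2 fold change over the 66 genes was 0.22, beside 0.0023 over all tested genes. The groups did not overlap in 12 of the 66, against 23.9% of all tested genes. Of these 12, 7 had ΔNSPs higher and 5 had it lower, against 12.2% and 11.7% of all tested genes. In 23 of the 66 (34.8%) and in 2 of the 6 members, CSF1R and CSF3R, clones 2 and 3 lay above every Control line and clone 1 did not. That pattern was looked for after the values were seen, so setting its shares side by side is no test. It held for 11.2% of all tested genes. Its mirror, with clones 2 and 3 below every Control line and clone 1 not, was not counted. List genes such as CSF2RA and TIRAP showed that mirror. Without clone 1, edgeR called 12 of 69 list genes, 10 higher and 2 lower, and 0 of 6 members, against 6.17% of the 15050 genes then tested (3.04% higher, 3.13% lower). The 10 higher genes were FCER1G, FGR, SIGLEC5, SIGLEC7, TYROBP, IL16, LYZ, FCN1, CEBPB and RUNX1, and the 2 lower were FCGRT and SCARB2. With any other single library left out, edgeR called 0 list genes, as it did with all libraries.

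Chromosome neighbours of the members lay furthest from their Control level around CD33, in clones 2 and 3. Genes within 5 Mb of a member on each side, averaging 8 CPM or more, had medians of the log2 ratio to Control between -0.21 and 0.12 in every library. Near FCGR2A the median over 58 genes lay between -0.048 and 0.020, while FCGR2A itself stood at -0.83, -0.32 and -0.75 in the clones. Near CD4 the median over 73 genes was 0.036 in clone 1, where CD4 stood at -1.13. Near CD33 the median over 156 genes was 0.062, -0.21 and -0.20 in clones 1 to 3, beside 0.079, 0.078 and -0.28 for CD33 itself. In the Control lines the median near CD33 lay between -0.038 and 0.071. Near CSF1R it was -0.048, -0.021 and -0.038 over 37 genes, beside 0.24, 1.91 and 1.38 for CSF1R.

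Over the 6 libraries the members did not share a single profile. CSF1R, CD4 and CSF3R had the widest ranges, 2.46, 1.51 and 1.29 on the log2 CPM scale, and CD33 the narrowest at 0.361. Among about 9911 protein-coding genes averaging 5 CPM or more, the profile of CSF1R was most like those of PSMB8, WDR83OS and ITGA7 (Pearson r 0.999, 0.997 and 0.995). For CD4 they were PLEKHM3, NXF3 and PEAK1 (0.993, 0.986 and 0.977), and for CSF3R they were FAM172A, SPNS3 and EGLN1 (0.997, 0.992 and 0.990). With 6 libraries such values are easily reached: 495 genes had r over 0.9 with CSF1R, 65 with CD4 and 234 with CSF3R. Pearson r also leaves out the size of a change. PSMB8 ran from 160.5 to 219.9 CPM over the libraries, and CSF1R from 0.362 to 4.24 CPM. EGLN1, an oxygen-sensing prolyl hydroxylase singled out among these partners after its values were seen, was at 0.428, 33.2 and 32.9 CPM in the clones and 14.5, 1.23 and 1.82 CPM in the Control lines.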

How the data were processed

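RNA-seq counts of 6 U937 libraries, 3 ΔNSPs and 3 Control, were analysed. The authors deposited unnormalised counts, 1 row per Ensembl gene, and no gene of the table had fewer than 10 counts in all. The submitters' processing notes name HTSeq 0.11.1, HISAT2 2.0.0, SAMtools 1.5.9 and FastQC, and the build GRCh38.p12. The annotation, strand setting and filters are not stated in any source used here, so reads of antisense genes may be mixed. Symbols, positions and exon lengths came from GENCODE v29 (18771 genes matched), and promoters from RefSeq.

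Groups were compared in edgeR 4.0.16 under R 4.3.3 with TMM, filterByExpr, quasi-likelihood, two-sided, Benjamini-Hochberg over 14797 genes, adjusted p under 0.05. Log2 fold changes are ΔNSPs minus Control. DESeq2 1.42.0 and limma 3.58.1 (voom, quality weights) were alternatives, with other scalings, filters, a replicate block and each library left out. The 3 tests were run on simulated counts with known changes before use. Members and lists were chosen with earlier results of these data known. Genes named by rule are the members, the targets, and each list's most abundant gene and that with its lowest p. Also named by rule are Fc receptor genes sharing stretches with FCGR1A or FCGR2A, and the 3 nearest profiles of the 3 most variable members. Any other gene named was chosen after its values were seen. The labels call the lines and clones separate, and no batch or date is given. Floors cover counting error only.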

Additional observations from a re-analysis of the deposited data

How the results depend on the processing

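The count of genes called over the whole table moved with the tool and with single libraries. It was 3 in edgeR, 565 in DESeq2, and 0 to 928 with 1 library left out. For the members, the count called was 0 in edgeR, 1 in DESeq2 and 0 in each fit that left out a library (0 to 0). For the other genes of the pathways it was 0 in edgeR, 7 in DESeq2 and 0 to 12 with 1 library left out, the 12 being without ΔNSPs clone 1. The members whose groups did not overlap numbered 1, and 1 to 3 with 1 library left out, being 3 without clone 1, while the share over all tested genes was 29.6% to 45.6%. With the replicate number as a block, edgeR called 0 genes over the table. Same-numbered clones and lines deviated from their group means with correlations of -0.43, -0.16 and -0.14. Differently numbered ones gave -0.18 to 0.29. With so few libraries these values cannot show whether same-numbered libraries were handled together, and the labels give only a shared number.

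The sign of FCGR1A turned with library totals unscaled (-0.0084) and in limma voom (-0.014), and its log2 fold change ran from -0.17 to 0.20 with 1 library left out. Over the same fits CD33 ran from -0.098 to 0.080 and CD4 from -0.54 to 0.14, and the cause was not tested. Of 79 alternative values for members with an adjusted p, 71 kept direction and call, 7 turned, and 1 (FCGR2A in DESeq2) gained a call. Low counts limit CD14, CD36, CD68 and CD86, with 10 to 52 counts each over all libraries. The count of CD68 may also be incomplete because of the exon bases it shares with AC016876.2, a gene without a row here. That was not tested.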
